A study of Mus musculus with 18 samples.

Results

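The genes described here encode 9 matricellular proteins: osteopontin (Spp1), SPARC (Sparc), SPARC-like 1 or hevin (Sparcl1), thrombospondins 1 and 2 (Thbs1, Thbs2), tenascin C (Tnc), periostin (Postn), and the CCN proteins CTGF (Ctgf, now Ccn2) and CYR61 (Cyr61, now Ccn1). They were taken as the probes whose gene name on the array was one of these symbols, without regard to their values. All 9 genes were measured, out of 27962 gene names on the array, by 15 probes. Of those names, 20455 genes had a probe well above background in the sample channel on at least 3 arrays and were tested, the 9 genes among them. The 9 probes used, the brightest of each gene, were well above background on all 18 arrays, and none was saturated.

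Matricellular proteins are secreted into the matrix around cells but do little to hold it together; they act on cells through integrins and other receptors and bind growth factors, proteases and collagen. Most are low in resting adult tissue and are known to rise during development, wound repair and fibrosis. In glands they are made mainly by fibroblasts, perivascular cells and endothelium, although epithelial cells under stress can make several of them, osteopontin and the CCN proteins among them. Ctgf and Cyr61 are textbook targets of the YAP and TAZ coactivators, which act with TEAD factors.

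RNA came from cells of C57BL/6 mouse thyroids of both sexes, with or without partial thyroidectomy, digested with enzymes and cultured for 2 days before sorting on a Hoechst dye, a DNA stain that some cells pump out; age was not given in the labels used here. The side population, sorted as the cells that exclude the dye, gave 6 arrays from control thyroids (CSP) and 6 after partial thyroidectomy (TSP), and the main population, the remaining cells, gave 3 control arrays (CMP) and 3 after surgery (TMP). The design text calls the samples biological replicates without saying how many animals each pooled, so p-values measure the spread between these samples only. Each value is the log2 ratio of the sample (Cy5) to a common reference (Cy3), an RNA pool of several Swiss Webster mouse tissues, so a ratio says how far one gene lay from its own level in that pool and cannot rank one gene against another. In these sorted bulk samples, fewer cells of a type and less RNA per cell cannot be told apart.

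Across all genes, TSP 1 and TSP 2 did not have the profile of the other side population arrays: their median correlation was 0.945 and 0.955 with the main population arrays, against 0.695 and 0.697 with the other side population arrays. Every comparison is therefore given with all 18 arrays and without these 2. They were picked out by the same expression values that are compared, and leaving them out favours a difference between TSP and TMP. The p-values without them do not allow for that choice. Each gene has 1 spread shared by the 4 groups, so leaving them out also changes the SE and p of CSP minus CMP. For Spp1 that difference stayed at 5.41 while its SE went from 1.40 to 0.66. The share of probes above background ran from 38.8% to 72.0% per array, and precision is limited by how many arrays there were. Groups were mixed unevenly over 5 slides: CSP 1 and 2 shared slide 1 with TSP 1 and 2; slide 2 carried CMP 1 beside TMP 1; CSP 3 and 4 were on slide 3 together with TSP 3 and 4. On slide 4 were CSP 5 and 6 next to CMP 2 and TMP 2, and TSP 5 and 6 shared slide 5 with the last CMP and TMP arrays. Of 13 follicular cell markers, 9 were measured, and the iodide transporter Slc5a5 was above background on 2 of 3 CMP arrays and 0 of 6 CSP arrays.

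Spp1, Sparcl1 and Postn were far higher in the control side population than in the control main population, by 42.4-fold, 16.8-fold and 8.64-fold. Sparc lay in the same direction by 1.73-fold and passed the test without TSP 1 and TSP 2 but not with all arrays, while Thbs1, Thbs2, Tnc, Ctgf and Cyr61 did not pass it with or without those 2 arrays, where the smallest adjusted p among them, that of Ctgf, was 0.111 and 0.109. Thus 3 of 9 genes were called higher in limma's moderated test with Benjamini-Hochberg adjustment over 20455 genes at an adjusted p under 0.05, against 7.61% of all genes called higher, 7.25% called lower and 14.9% called in either direction. Without TSP 1 and TSP 2 the count was 4 of 9, against 10.2% of all genes called higher, 9.06% called lower and 19.3% in either direction. The arrays of CSP and CMP did not overlap for 3 of 9 genes, against 11.1% of all genes higher without overlap. Scaling the arrays to a common spread left 0 of 9 called with all arrays, with adjusted p-values of 0.346 for Spp1, 0.284 for Sparcl1 and 0.169 for Postn. Over all genes the calls split into 1557 higher and 1482 lower, and into 855 higher and 1772 lower with median centring in place of loess.

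After partial thyroidectomy, Spp1, Sparcl1, Postn and Sparc were higher in TSP 3 to 6 than in TMP, by 66.5-fold, 23.2-fold, 18.6-fold and 2.26-fold, and these 4 of 9 genes were called, against 7.67% of all genes called higher, 7.01% called lower and 14.7% in either direction. Their arrays did not overlap, against 12.6% of all genes higher without overlap. With TSP 1 and TSP 2 included, 0 of 9 genes and 0% of all genes were called, while 4 of 9 and 13.7% had an unadjusted p under 0.05.

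**Figure D1:**
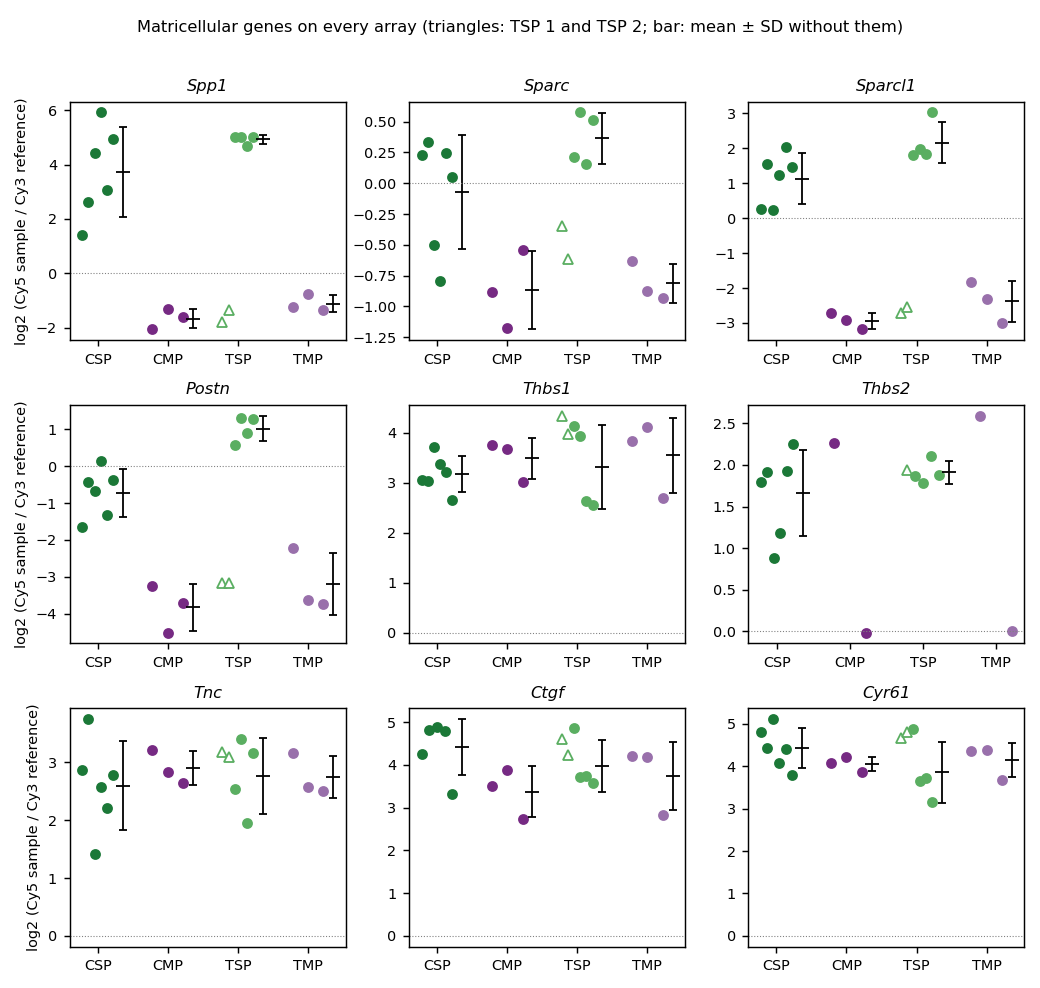
Each panel plots one gene's log2 ratio of sample to reference (vertical axis) on every array of the 4 groups (horizontal axis); filled circles are arrays, open triangles are TSP 1 and TSP 2, and the black bar beside a group is its mean ± SD without those 2 arrays, drawn for 3 or more values. Spp1, Sparcl1 and Postn separate CSP from CMP with no overlap, and the triangles lie with the main population, whereas Thbs1, Tnc, Ctgf and Cyr61 overlap across the groups.

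Spp1 encodes osteopontin, a secreted ligand of alpha-v integrins and CD44, and was read by 1 probe spotted 10 times on each array. On the CSP arrays its log2 ratio ran from 1.43 (CSP 1) over a median of 3.76 to 5.93 (CSP 4), and on the 3 CMP arrays it was -2.05, -1.33 and -1.61. All 6 CSP arrays lay above the reference pool and all 3 CMP arrays below it, and CSP 1 and CSP 2, the CSP arrays of slide 1, were the lowest of the 6, with a mean deviation of -1.72 from the CSP mean. The difference was 5.41 on the log2 scale (SE 1.40, 95% interval 2.47 to 8.34, adjusted p = 0.0157 in limma), and its adjusted p was 1.85e-05 without TSP 1 and TSP 2. With all arrays, leaving out CMP 1 gave an adjusted p of 0.0687 and leaving out CMP 2 one of 0.0595; without TSP 1 and TSP 2, Spp1 was called with each of the 16 remaining arrays left out. On the TMP arrays the log2 ratio was -1.24, -0.75 and -1.37, and on the TSP arrays it was -1.81, -1.36, 5.03, 5.03, 4.68 and 5.01 for TSP 1 to 6. TSP 3 to 6 thus lay close together, while TSP 1 and TSP 2 lay at the main population's level. TSP exceeded TMP by 3.88 with all arrays (adjusted p = 0.255) and by 6.05 without TSP 1 and TSP 2 (66.5-fold, SE 0.72, adjusted p = 1.95e-05). Spp1 was the member with the largest spread within CSP, with an SD of 1.66 against 0.36 to 0.77 for the other 8 genes.

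Sparcl1, the gene of hevin, is a collagen-binding relative of SPARC that vascular wall cells are known to make. Its log2 ratio on CSP 1 to 6 had a lowest value of 0.23, a median of 1.35 and a highest value of 2.03, against -2.72, -2.92 and -3.17 on the CMP arrays. The groups did not overlap, and the side population values lay above the reference and the main population values below it. The difference of 4.07 (SE 0.99, 95% interval 2.00 to 6.14) had an adjusted p of 0.0121 in limma and of 1.71e-06 without TSP 1 and TSP 2; with all arrays, leaving out CMP 2 raised it to 0.0554. TMP read -1.83, -2.30 and -2.99, and TSP 1 to 6 read -2.70, -2.56, 1.79, 1.98, 1.83 and 3.03. Again only TSP 1 and TSP 2 fell in the main population's range. The excess of TSP over TMP was 2.94 with all arrays (adjusted p = 0.252) and 4.54 without those 2 (23.2-fold, SE 0.43, adjusted p = 1.55e-06). A second Sparcl1 probe followed the first with r = 0.985 over the 18 arrays and gave 3.94 for CSP minus CMP.

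Postn encodes periostin, a fasciclin-domain protein of fibroblast-rich matrix that takes part in collagen cross-linking. Its log2 ratio ran from -1.64 over a median of -0.56 to 0.15 on CSP, and was -3.25, -4.51 and -3.73 on CMP. The 2 groups did not overlap. CSP exceeded CMP by 3.11 (SE 0.89, 95% interval 1.25 to 4.97, adjusted p = 0.0252 in limma), with an adjusted p of 3.05e-05 without TSP 1 and TSP 2. With all arrays this call was lost on leaving out any 1 CMP array, with an adjusted p of 0.0617 without CMP 1, 0.117 without CMP 2 and 0.0637 without CMP 3. TMP read -2.23, -3.62 and -3.74, and TSP 1 to 6 read -3.18, -3.17, 0.59, 1.32, 0.89 and 1.28. TSP 3 to 6 lay above the reference, a level that 1 of 6 CSP arrays (CSP 4) reached. TSP exceeded TMP by 2.82 with all arrays (adjusted p = 0.252) and by 4.22 without TSP 1 and TSP 2 (18.6-fold, SE 0.44, adjusted p = 4.41e-06).

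Within the slides that held both populations, these 3 genes kept their direction. On slide 4, with 2 CSP arrays and 1 CMP array, CSP exceeded CMP by 5.35 for Spp1, 4.67 for Sparcl1 and 3.67 for Postn. On slide 5, with 2 TSP arrays and 1 TMP array, TSP exceeded TMP by 6.21, 5.42 and 4.83. A single main population array shows no spread of its group, so these are given as differences only. With slide as a fixed block over all arrays, TSP 1 and TSP 2 on slide 1 included, CSP minus CMP was 6.59, 5.58 and 4.36. These were the highest of 52 alternative values for each gene, and the lowest were 3.88, 2.99 and 2.24.

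Spp1 and Postn rose together in the side population, and the bases just before their start sites are shown for that reason, as RefSeq gives them on GRCm38.p6, 5′ to 3′ on the gene's strand, ending at the base before the start. The Spp1 window is chr5:104434861-104435110 (+ strand) and the Postn window chr3:54360857-54361106 (+ strand), each 250 bases. RefSeq lists 2 starts for both genes; the outer one is shown for Spp1 and the inner one for Postn, a choice made after the motifs had been seen. Capitals mark matches on either strand to any of 4 motifs. The first is TATAAA, found before many start sites. TEAD factors bind the core GGAATG. AP-1 binds the core TGANTCA, and SRF the CArG box. No matches overlapped.
Spp1: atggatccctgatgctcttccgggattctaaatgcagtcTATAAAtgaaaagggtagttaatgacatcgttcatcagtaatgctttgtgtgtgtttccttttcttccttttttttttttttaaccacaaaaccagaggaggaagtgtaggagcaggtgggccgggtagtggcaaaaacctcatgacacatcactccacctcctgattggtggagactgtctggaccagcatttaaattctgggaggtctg
Postn: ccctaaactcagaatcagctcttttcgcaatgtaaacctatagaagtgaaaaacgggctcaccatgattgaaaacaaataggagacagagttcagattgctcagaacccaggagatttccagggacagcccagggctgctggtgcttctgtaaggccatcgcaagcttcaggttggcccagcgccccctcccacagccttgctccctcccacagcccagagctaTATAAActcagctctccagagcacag
Both windows held 1 TATAAA match, starting 26 bases before the start in Postn and 211 bases before it in Spp1, and none of the other 3 motifs. The windows not shown, the inner one of Spp1 and the outer one of Postn, held 0 matches to any of the 4. Among all 32851 windows of that length, 12.4% held TATAAA, 12.6% GGAATG, 6.75% TGANTCA and 1.47% a CArG box. A match here describes the letters only. Windows were found for 6 of the 9 genes, and none was found for Sparcl1, Thbs1 and Ctgf.

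Sparc encodes the collagen-binding, counter-adhesive protein SPARC. The log2 ratio on CSP ran from -0.79 over a median of 0.14 to 0.34, and on CMP it was -0.89, -1.17 and -0.54. CSP 3 and CSP 4, on slide 3, read -0.50 and -0.79; CSP 4 lay within the CMP range, while the other 4 CSP arrays lay above the reference. The difference of 0.79 (SE 0.30, 95% interval 0.17 to 1.42) had an adjusted p of 0.0787 with all arrays and of 0.0407 without TSP 1 and TSP 2, and the latter call held in 9 of 16 fits with a further array left out. With TSP 1 and TSP 2 kept, it was called on leaving out CSP 4 (0.94, adjusted p = 0.0378) and with slide as a fixed block (1.101, adjusted p = 0.0396). With slide as a block and without TSP 1 and TSP 2 it was 0.82 (adjusted p = 0.0576). After surgery TMP read -0.64, -0.87 and -0.93, below all TSP arrays, which read -0.35, -0.62, 0.21, 0.57, 0.16 and 0.51. Sparc was the only 1 of the 9 genes whose TSP and TMP arrays did not overlap with all 18 arrays used, against 1.48% of all genes higher without overlap, although TMP 1 and TSP 2 lay close together. TSP exceeded TMP by 0.89 with all arrays (adjusted p = 0.252) and by 1.18 without TSP 1 and TSP 2 (2.26-fold, SE 0.28, adjusted p = 0.00783), a call that held with each of the 16 arrays left out in turn.

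The brightest Sparc probe is printed because its 60 bases come from both sides of an exon junction, so that it reads spliced RNA. On the mm7 build of the array's annotation it spans chr11:55352704-55355361 (minus strand), a stretch of 2658 bases, and no letters are in capitals.
Sparc: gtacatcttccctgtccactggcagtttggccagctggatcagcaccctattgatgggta
The second Sparc probe, at chr11:55351268-55351327, followed it with r = 0.83 over the 18 arrays. It gave 0.71 for CSP minus CMP (adjusted p = 0.152 over 29803 probes, without TSP 1 and TSP 2) and 1.66 for TSP minus TMP (adjusted p = 0.00368), where the first gave adjusted p-values of 0.0450 and 0.00933. Without TSP 1 and TSP 2, both probes were thus called after surgery, and 1 of the 2 in controls. With all 18 arrays neither was called in either comparison, with adjusted p-values in limma of 0.0848 to 0.283.

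**Figure D2:**
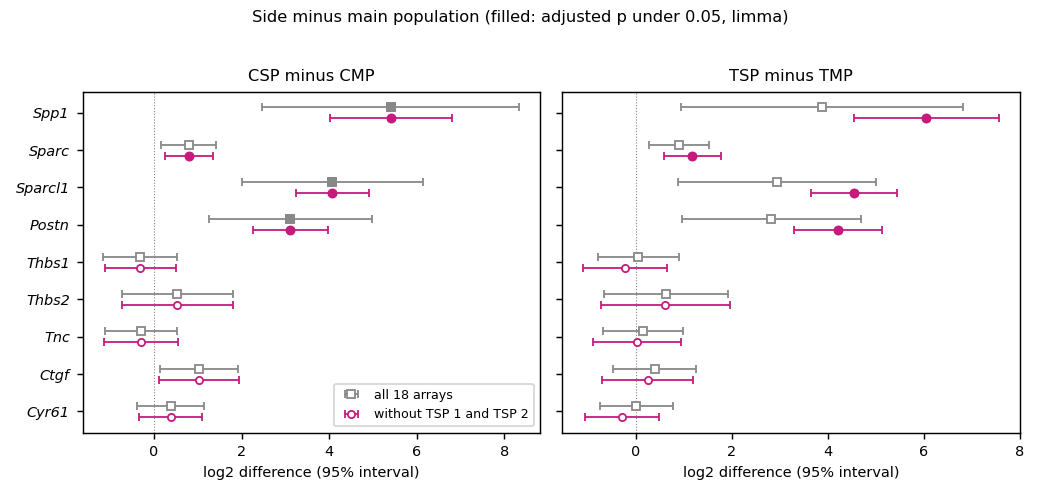
Log2 differences between side and main population (horizontal axis, points with 95% intervals) for the 9 genes (vertical axis) in control thyroids (left) and after partial thyroidectomy (right), with all 18 arrays (grey squares) and without TSP 1 and TSP 2 (pink circles); filled symbols have an adjusted p under 0.05 in limma. Spp1 at 5.41, Sparcl1 at 4.07 and Postn at 3.11 stand to the right in controls, and on the right the pink intervals are narrower than the grey ones for those genes.

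Thbs1 and Thbs2 encode thrombospondins, large secreted glycoproteins that restrain vessel growth through CD36 and CD47; thrombospondin 1 also activates latent TGF-beta. Thbs1 lay above the reference on every array. Its log2 ratio ran from 2.65 over a median of 3.14 to 3.72 on CSP and was 3.76, 3.68 and 3.02 on CMP. The ranges overlapped, and the difference of -0.31 (SE 0.40, 95% interval -1.16 to 0.54, adjusted p = 0.666 in limma) was within the spread. On TMP it was 3.84, 4.11 and 2.70 and on TSP 1 to 6 it was 4.34, 3.97, 4.14, 3.93, 2.64 and 2.56. The arrays of slide 5 (TSP 5, TSP 6, TMP 3) were the low ones in both groups. TSP minus TMP was 0.04 with all arrays (adjusted p = 0.979) and -0.23 without TSP 1 and TSP 2 (95% interval -1.11 to 0.64, adjusted p = 0.796). With slide as a fixed block in limma, CSP lay below CMP by a called difference of -0.97 (adjusted p = 0.0105). Without TSP 1 and TSP 2 as well it was -0.86 (adjusted p = 0.0206). Within slide 4, the 1 slide that held both groups, it was -0.75, with 1 CMP array and thus no CMP spread.

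Of the 3 Thbs1 probes, 2 were dim, above background on 14 and 9 of 18 arrays, and correlated with the bright one at r = 0.638 and 0.617. They gave -0.68 and -0.92 for CSP minus CMP, the latter with an adjusted p of 0.0672. The dimmer of the 2 and the single Thbs2 probe are printed because both lie across an exon junction and the paralogs share repeats that a probe could cross-read. The Thbs1 probe spans chr2:117861824-117862004 (+ strand) and the Thbs2 probe chr17:12950083-12951346 (minus strand), both on mm7, with no letters in capitals.
Thbs1: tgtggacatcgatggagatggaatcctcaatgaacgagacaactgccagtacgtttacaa
Thbs2: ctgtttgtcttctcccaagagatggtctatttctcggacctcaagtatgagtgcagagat
At their best ungapped placement these 2 probes matched at 21 of 56 aligned bases. The bright Thbs1 probe, used for the results, matched the Thbs2 probe at 21 of 58. Only probes were compared with each other, not a probe with the other gene's transcript, so cross-reading was not tested.

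Thbs2 had a value on 15 of 18 arrays; spots marked as outliers left out CMP 3, TSP 2 and TMP 3, so each main population group held 2 values. Its log2 ratio ran from 0.89 over a median of 1.86 to 2.25 on CSP, and was 2.26 on CMP 1 and -0.01 on CMP 2. It was 2.59 on TMP 1 and 0.01 on TMP 2. TSP 1 read 1.94, and TSP 3 to 6 read 1.87, 1.79, 2.11 and 1.87. The 2 main population values of each group thus lay on either side of the side population, with CMP 1 and TMP 1 (slide 2) high and CMP 2 and TMP 2 (slide 4) low. CSP minus CMP was 0.53 (SE 0.59, adjusted p = 0.606) and TSP minus TMP 0.62 (adjusted p = 0.744), and without TSP 1 and TSP 2 the adjusted p-values were 0.614 and 0.624. With slide as a fixed block, which sets aside the high values of slide 2 because no side population array shares that slide, the differences were 2.18 (adjusted p = 0.00155) and 2.51 (adjusted p = 0.0193). No slide held both a TSP and a TMP value of Thbs2. The 2.51 is thus indirect, through CSP and the low CMP 2 and TMP 2 values of slide 4. Within slide 4, CSP minus CMP was 2.10 from 2 CSP arrays and 1 CMP array, which shows no CMP spread. The direction against CMP turned to -0.60 on leaving out CMP 2 and the value rose to 1.67 on leaving out CMP 1.

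Tnc encodes tenascin C, a hexameric, counter-adhesive glycoprotein of remodelling tissue. It lay above the reference on every array. The log2 ratio on CSP ran from 1.41 over a median of 2.68 to 3.75, on CMP it was 3.22, 2.84 and 2.64, on TMP 3.17, 2.57 and 2.50, and on TSP 3.18, 3.10, 2.54, 3.41, 1.95 and 3.17. All 4 groups overlapped. CSP minus CMP was -0.30 (SE 0.39, 95% interval -1.12 to 0.53, adjusted p = 0.673 in limma), and TSP minus TMP was 0.15 with all arrays and 0.02 without TSP 1 and TSP 2. The other 2 Tnc probes correlated with it at r = 0.613 and 0.431, the second being above background on 8 of 18 arrays, and neither passed the test in either comparison.

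Ctgf and Cyr61 encode CCN proteins, which bind integrins and heparan sulfate and are induced quickly by growth factors and mechanical load. Both lay well above the reference on every array with a value. Ctgf had no value on CSP 1 (an outlier spot), and read 4.25, 4.81, 4.89, 4.79 and 3.33 on CSP 2 to 6, against 3.52, 3.89 and 2.73 on CMP. CSP 6 lay within the CMP range and the other 4 above it. The difference of 1.03 (SE 0.42, 95% interval 0.14 to 1.93) had an adjusted p of 0.111 in limma, and 0.0350 on leaving out CSP 6. Within slide 4, CSP minus CMP was 0.17. After surgery Ctgf read 4.20, 4.18 and 2.83 on TMP and 4.60, 4.24, 4.87, 3.71, 3.74 and 3.59 on TSP, a difference of 0.39 with all arrays (adjusted p = 0.769) and 0.24 without TSP 1 and TSP 2 (adjusted p = 0.809).

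Cyr61 ran from 3.79 over a median of 4.41 to 5.10 on CSP and read 4.07, 4.21 and 3.87 on CMP, 4.37, 4.38 and 3.67 on TMP, and 4.66, 4.81, 4.87, 3.66, 3.73 and 3.15 on TSP. The groups overlapped throughout. CSP minus CMP was 0.38 (SE 0.37, 95% interval -0.39 to 1.15, adjusted p = 0.537), and TSP minus TMP was 0.01 with all arrays and -0.29 without TSP 1 and TSP 2 (adjusted p = 0.703). Its start-site window is shown since it is the one listed among the 3 genes that moved together from array to array: chr3:145649986-145650235 on GRCm38.p6 (minus strand), 250 bases, with the same motifs in capitals.
Cyr61: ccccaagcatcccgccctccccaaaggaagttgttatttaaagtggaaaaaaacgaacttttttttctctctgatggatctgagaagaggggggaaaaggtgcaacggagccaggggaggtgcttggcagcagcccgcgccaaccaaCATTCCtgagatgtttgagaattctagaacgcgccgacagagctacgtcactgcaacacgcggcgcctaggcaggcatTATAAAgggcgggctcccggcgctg
It held 1 match to GGAATG, on the reverse strand and starting 103 bases before the start site, and 1 TATAAA match 25 bases before it. No TGANTCA or CArG box match was in the window.

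Thbs1, Ctgf and Cyr61 varied together among arrays of the same group. After each group's mean was removed, over the 16 arrays other than TSP 1 and TSP 2, Pearson's r was 0.796 between Ctgf and Thbs1 (15 arrays), 0.773 between Ctgf and Cyr61 (15 arrays) and 0.735 between Cyr61 and Thbs1 (16 arrays). These are descriptions of arrays that share slides and carry no p. Their deviations followed the slides in part: on slide 5 the 4 arrays deviated on average by -0.69 (Thbs1), -0.55 (Ctgf) and -0.37 (Cyr61) from their group means on the log2 scale, and on slide 3 by 0.55, 0.37 and 0.29. With slide means removed as well, r was 0.665, 0.632 and 0.693 for the same pairs. Among the genes higher in the side population, r was 0.485 for Postn and Spp1, 0.398 for Postn and Sparcl1, 0.128 for Sparcl1 and Spp1 and -0.681 for Sparc and Spp1. With slide means removed these became 0.837, 0.623, 0.396 and -0.39, and that of Postn and Spp1 was then the highest among these pairs and those of Thbs1, Ctgf and Cyr61. Other pairs were as strong, with r of -0.876 for Cyr61 and Tnc and 0.742 for Sparcl1 and Tnc. That of Spp1 and Thbs2 went from -0.309 to 0.707 (14 arrays), so these r depend on whether slide means are removed.

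**Figure D3:**
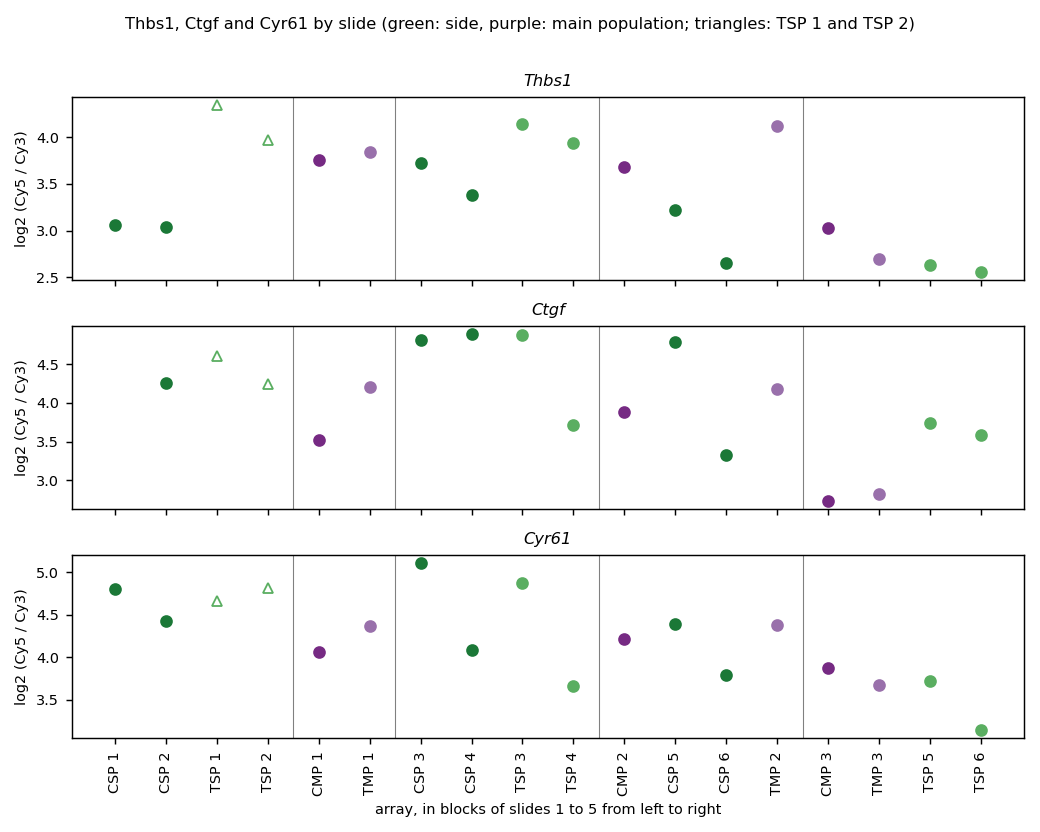
Log2 ratio of sample to reference (vertical axis) of Thbs1, Ctgf and Cyr61 on each array (horizontal axis), in blocks of slides 1 to 5 divided by vertical lines; green marks side population and purple main population arrays, dark shades controls and light shades surgery, and open triangles TSP 1 and TSP 2. The arrays of slide 5 are low for all 3 genes, with mean deviations of -0.69, -0.55 and -0.37 from their group means.

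Partial thyroidectomy was compared with no surgery within each population. None of the 9 genes was called for TSP minus CSP or TMP minus CMP, and 0% of the 20455 genes were called in either comparison by limma at an adjusted p under 0.05. At an unadjusted p under 0.05, 0 of 9 genes and 9.09% of all genes differed between TSP and CSP with all arrays, and 0 of 9 and 0.122% between TMP and CMP. Without TSP 1 and TSP 2, 2 of the 9, Postn and Sparcl1, had an unadjusted p under 0.05 for TSP minus CSP, against 3.43% of all genes.

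Postn in TSP 3 to 6, at 0.59 to 1.32, lay above all 6 CSP arrays, whose highest value was 0.15. The difference was 1.74 on the log2 scale (3.33-fold, SE 0.37, 95% interval 0.96 to 2.51, unadjusted p = 0.000193, adjusted p = 1.00 in limma), and it was the only 1 of the 9 genes without overlap, against 0.342% of all genes higher without overlap. With all arrays it was 0.34 (adjusted p = 0.921). Within slide 3, which held 2 arrays of each group, it was 1.22, and with slide as a fixed block and without TSP 1 and TSP 2 it was 1.34 (adjusted p = 0.174). Sparcl1 was higher by 1.03 (SE 0.36, unadjusted p = 0.0109), with overlapping groups, and Spp1 by 1.20 (SE 0.61, unadjusted p = 0.0649), all without TSP 1 and TSP 2. With all arrays the latter 2 took the other sign, at -0.57 and -0.98. Cyr61 and Ctgf differed by -0.58 and -0.43 in TSP 3 to 6 against CSP, with overlapping arrays.

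In the main population, TMP minus CMP ran from -0.15 (Tnc) to 0.63 (Postn) over the 9 genes with adjusted p-values of 1.00. The 95% intervals with all arrays were wide, from -1.52 to 2.78 for Postn and from -2.84 to 3.94 for Spp1. These intervals leave out the pairing of TMP and CMP arrays by number and slide. On slides 2, 4 and 5, TMP minus CMP was 0.82, 0.58 and 0.24 for Spp1, 0.89, 0.62 and 0.18 for Sparcl1, and 0.69, 0.30 and 0.094 for Ctgf, higher in 3 of 3 pairs. For Postn it was 1.02, 0.89 and -0.014, higher in 2 of 3. Sparc, Thbs1 and Cyr61 were likewise higher on slides 2 and 4 and lower on slide 5. Tnc was lower in 3 of 3, by -0.045, -0.27 and -0.14. Thbs2 was 0.33 and 0.020 on slides 2 and 4, with no value on slide 5. How many of all genes kept their sign over the pairs was not counted. Fitted on main population arrays alone with the replicate block, the differences had an SE of 0.17 for Spp1, Sparcl1 and Ctgf and of 0.20 for Postn, and adjusted p-values of 0.574, 0.586, 0.830 and 0.592. The difference of the surgery differences between the populations (the interaction) was called for 0 of 9 genes and for 0% of all genes. At an unadjusted p under 0.05 it was 0 of 9 genes against 1.08% of all genes with all arrays and 0 of 9 against 0.592% without TSP 1 and TSP 2, and the value nearest to it was that of Postn, 1.105 (SE 0.59, unadjusted p = 0.0803).

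**Figure D4:**
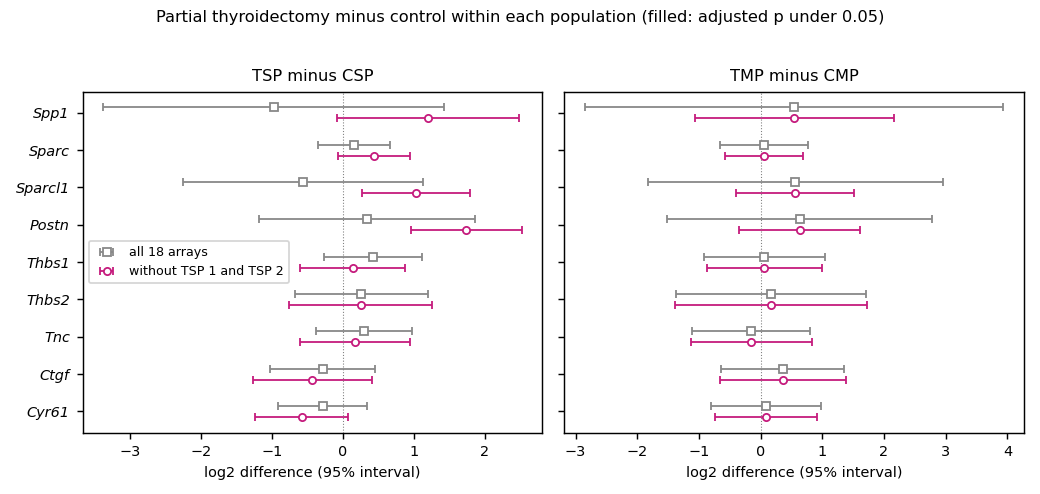
Log2 differences between partial thyroidectomy and control (horizontal axis, points with 95% intervals) for the 9 genes (vertical axis) within the side population (left) and the main population (right), with all 18 arrays (grey squares) and without TSP 1 and TSP 2 (pink circles). No symbol is filled, since none had an adjusted p under 0.05, and on the left the pink intervals of Postn, 0.96 to 2.51, and Sparcl1 lie above 0.

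In order of level, Spp1, Sparcl1 and Postn had their highest group mean in TSP 3 to 6 (4.94 ± 0.17, 2.16 ± 0.58 and 1.02 ± 0.35; SD, n = 4), followed by CSP (3.74 ± 1.66, 1.13 ± 0.73 and -0.72 ± 0.65; n = 6), TMP (-1.12 ± 0.32, -2.38 ± 0.58 and -3.20 ± 0.84; n = 3) and CMP (-1.67 ± 0.36, -2.94 ± 0.23 and -3.83 ± 0.64; n = 3). Sparc kept that order. With all 6 TSP arrays the TSP means of Spp1 and Sparcl1 were 2.76 and 0.56, below those of CSP. Those of Postn (-0.38) and Sparc (0.08, against -0.07 on CSP) stayed above. Between TMP and CMP the arrays overlapped for each of these 4 genes, and between TSP 3 to 6 and CSP they overlapped for all but Postn. For Thbs1, Thbs2, Tnc, Ctgf and Cyr61 the arrays of neighbouring groups overlapped.

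The relatives and partners of these proteins were taken from lists chosen with earlier results of these data known. For these 3 lists, the shares of all genes to set beside the counts are 7.61% higher and 7.25% lower in CSP against CMP (10.2% and 9.06% without TSP 1 and TSP 2), and 7.67% higher and 7.01% lower in TSP 3 to 6 against TMP. With all 18 arrays, 0 genes of each list rose and 0 fell in TSP against TMP, where 0% of all genes were called. Of 30 other matricellular genes, 25 were measured; in CSP against CMP 7 rose and 2 fell (11 and 3 without TSP 1 and TSP 2), with a median log2 difference of 1.01 against 0.06 over all genes. Igfbp7, an insulin-like growth factor binding protein of vessel walls, rose 52.0-fold (adjusted p = 0.00915 in limma) and Fstl1, a SPARC-family glycoprotein, 19.7-fold (adjusted p = 0.00882). Galectin 3 (Lgals3) and Edil3, an integrin ligand, fell 4.98-fold and 3.87-fold. In TSP 3 to 6 against TMP, 8 rose and 3 fell, led again by Igfbp7, which rose 79.7-fold, and Fstl1 at 29.8-fold, while Lgals3 fell 7.24-fold.

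All 24 genes on the list of receptors were measured; 4 rose and 4 fell in CSP against CMP (5 and 7 without TSP 1 and TSP 2), with a median of 0.18 against 0.06. Itgb3, the beta 3 integrin chain that pairs with alpha v, rose 8.37-fold, and Stab1, a scavenger receptor for SPARC, 6.57-fold. Itgb6, an epithelial integrin chain, fell 12.0-fold and syndecan 4 (Sdc4) 7.03-fold. In TSP 3 to 6 against TMP, 4 rose and 6 fell, among them Itgb3 (7.85-fold higher), Cacna2d1, a neuronal receptor for thrombospondins (7.65-fold higher), Itgb6 (10.0-fold lower) and Sdc4 (7.43-fold lower).

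Of 28 regulators and targets of TGF-beta, YAP and SRF, 26 were measured; 5 rose and 1 fell in CSP against CMP (7 and 3 without TSP 1 and TSP 2), with a median of 0.12 against 0.06. Tgfb2, a TGF-beta ligand, rose 5.18-fold and Wwtr1, which encodes TAZ, 5.01-fold. Ankrd1, a target of YAP and TAZ as are Ctgf and Cyr61, fell 6.68-fold. In TSP 3 to 6 against TMP, 6 rose and 2 fell: Wwtr1 rose 7.11-fold and Tgfb2 4.42-fold, while Ankrd1 fell 4.37-fold and Yap1 2.23-fold. None of the genes on the 3 lists was called for surgery in either population, where 0% of all genes were called.

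Markers of other cell types moved with the population, and their part in the differences of Spp1, Sparcl1, Postn and Sparc was not tested. For CSP against CMP, the shares of all genes are 7.61% higher and 7.25% lower (10.2% and 9.06% without TSP 1 and TSP 2). Of 12 fibroblast markers 12 were measured and 10 rose in CSP against CMP (12 without TSP 1 and TSP 2); the mean log2 ratio of the list ran from -1.34 to 1.21 on CSP arrays and from -3.26 to -2.76 on CMP arrays. Of 12 endothelial markers 10 were measured and all 10 rose, with list means of 1.00 to 2.73 against -1.78 to -1.12. Of 10 smooth muscle and pericyte markers 3 rose and 1 fell, with list means of -0.04 to 0.81 against -1.45 to -0.73. All 10 measured epithelial markers (of 12) fell, with list means of -1.20 to 2.37 against 3.46 to 3.82, as did 5 of 9 measured follicular markers, with -0.56 to 0.65 against 1.40 to 1.87. Of 9 measured macrophage and leukocyte markers 1 rose and 2 fell; 0 of 6 lymphocyte, 0 of 5 skeletal muscle, 0 of 2 adipocyte and 0 of 3 erythroid markers were called, and 1 of 5 C cell markers rose. On TSP 3 to 6 the fibroblast mean ran from -0.35 to 1.11 and the endothelial mean from 0.93 to 2.26. No endothelial or fibroblast marker was called between TSP and CSP, where 0% of all genes were called, so this does not show that the cell mix was the same.

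The genes whose pattern was most like each member's over the 18 arrays, among 19980 other genes with a value on every array, were listed by Pearson's r as a description. For Spp1 they were Enpep, an aminopeptidase of pericytes (r = 0.980), Aoc3, an amine oxidase of vessel walls (0.97) and Kcnab1 (0.974). For Sparcl1 they were Fstl1 (0.982), Nid1, a basement membrane nidogen (0.972) and Ednra, an endothelin receptor (0.971). For Postn they were Serping1, the C1 inhibitor (0.967), Fkbp14, a collagen chaperone (0.967) and LOC381508 (0.963), and for Sparc they were Rerg (0.936), the membrane protease Mmp14 (0.928) and complement C2 (0.926). The remaining members had nearest genes at lower r: Nek7, Galnt1 and Clint1 for Thbs1 (0.907, 0.906 and 0.895), Slc12a2, Crebbp and Pnrc1 for Ctgf (0.907, 0.892 and 0.881, over 17 arrays), E330018D03Rik, D230015J17Rik and Gabpb1 for Cyr61 (0.868, 0.864 and 0.835), 2610027C15Rik, Ddx1 and Zdhhc7 for Thbs2 (0.84, 0.84 and 0.83, over 15 arrays) and Ndufc1, Elmo2 and Prep for Tnc (0.824, 0.820 and 0.812). These r take in the difference between the populations as well as the spread within them.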

How the data were processed

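Two-colour Agilent mouse arrays measured amplified RNA of 18 samples (Cy5) against a common reference RNA (Cy3), with no dye swap, per the labels. Per the file headers, each deposited scanner file holds spot intensities with their local background, from Feature Extraction 9.5.1.1 with mm7 annotation (8.5.1.1 per the submitters' processing notes). The authors' deposited value table, which covers 33040 probes, is on a log2 scale by its slope against the scanner ratios and leaves its centring unstated; of its 18 columns, 10 were closest to their own scanner file and 8 to another, so it was used as an alternative alone.

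Mean intensities were background-corrected (normexp, offset 50) and loess-normalised within arrays in limma 3.58.1 (R 4.3.3, data.table version 1.17.8), with control spots at weight 0 and outlier-flagged spots left out. Spots were averaged per probe, probes above background in Cy5 on at least 3 arrays kept, and the brightest probe taken per gene. lmFit and eBayes were fitted on 4 group means over 20455 genes, with Benjamini-Hochberg adjustment per comparison and a threshold of 0.05; 95% intervals use the moderated SE. The scripts were tested on simulated data. Promoters are RefSeq's; figures used matplotlib 3.10.9. Columns of no sample in this series numbered 0.

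Same-numbered CMP and TMP samples shared a slide, and their deviations from the group means correlated at 0.666, 0.742 and 0.808. A pairing of the samples and the shared slide cannot be told apart here. The replicate block treats these numbers as pairs. Those of CSP and TSP correlated at -0.05 to 0.463 and were not taken as pairs. Alternatives were the scanner software's processed signals, a smaller offset, median centring, scaling between arrays, other filters and probe rules, outlier spots kept, slide and replicate blocks, single slides, the deposited table, each array left out, and TSP 1 and TSP 2 left out; slide as a fixed block or a further array left out without TSP 1 and TSP 2, and the replicate block on main population arrays alone, were added after seeing the data. The members and lists were chosen with earlier results of these data known. Named genes were the members, per related list and comparison the 2 called genes with the largest rise and fall, and the 3 genes with the highest r to each member.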

Additional observations from a re-analysis of the deposited data

How the results depend on the processing

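Of 1897 alternative values for the members' differences, 1613 kept their direction and their side of the threshold, 14 lost the call, 114 gained it and 156 changed sign; none that changed sign had been called with all arrays, and 2 were called after it, Sparc (-0.76) and Postn (-2.14) for TSP minus CSP within slide 1, which holds TSP 1 and TSP 2. The cause was not tested for any change. Fits within slide 4 or slide 5 had 1 array in each main population group, so their counts hold no main population spread. For CSP minus CMP, 3 members were called, and 0 with scaling between arrays or within slide 4, 1 with a replicate block, 6 with slide as a fixed block and 5 with that block and without TSP 1 and TSP 2; leaving out 1 of 18 arrays gave 0 to 4, with 0 without CMP 2 and 1 without CMP 1, and leaving out TSP 1, TSP 2 and 1 more gave 3 to 4. For TSP minus TMP, 0 were called, and 4 without TSP 1 and TSP 2, 4 with slide as a fixed block, 3 within slide 5, 4 with a replicate block and 5 with slide as a fixed block, both without TSP 1 and TSP 2; leaving out 1 of 18 arrays gave 0 to 3, with 3 without TSP 1 or TSP 2, and leaving out TSP 1, TSP 2 and 1 more gave 4. For TSP minus CSP, 0 were called, and 1 with slide as a fixed block and 5 within slide 1. Over all genes, CSP minus CMP called 3039 genes, and 447 with scaling between arrays, 1150 without CMP 1, 572 without CMP 2, 2002 with a replicate block, 5758 with slide as a fixed block, 5349 with slide as a random block and 0 within slide 4. TSP minus TMP called 0, and 3003 without TSP 1 and TSP 2, 513 without TSP 1, 613 without TSP 2, 224 with slide as a fixed block and 320 within slide 5. TSP minus CSP called 0, and 898 with slide as a fixed block, 241 with slide as a random block and 8320 within slide 1. Median centring moved the median of all genes from 0.06 to -0.08 for CSP minus CMP and from -0.04 to 0.24 for TSP minus CSP, and processed signals moved it to -0.07 for CSP minus CMP. With a replicate block in limma, Spp1 stayed called in CSP minus CMP, while Sparcl1 (2.99, adjusted p = 0.0606) and Postn (2.24, adjusted p = 0.109) did not. Same-numbered CSP and CMP samples shared no slide, and their deviations correlated at 0.133, -0.252 and -0.263. The block is therefore not a paired test of CSP against CMP. Treating same-numbered CMP and TMP samples as pairs changed no TMP minus CMP call of a member. With main population arrays alone, the block called 6 genes of all. Same-numbered CSP and TSP samples shared a slide for numbers 1 to 4 but not for 5 and 6. Their deviations correlated at -0.05 to 0.463, and the numbers were not taken as pairs.

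Signs changed as follows, all in results not called with all arrays. With the mean of all kept probes, Thbs1 (-0.35) and Tnc (-0.31) changed sign for TSP minus TMP, and Sparc (-0.074), Thbs1 (-0.11) and Tnc (0.10) for TMP minus CMP. With processed signals, Sparc (-0.039), Thbs1 (-0.070), Thbs2 (-0.087) and Cyr61 (-0.066) did so for TMP minus CMP, and with median centring Sparc did (-0.0011). With scaling between arrays Spp1 (1.32), Sparcl1 (0.81), Ctgf (1.37) and Cyr61 (1.18) did for TSP minus CSP. With a replicate block Thbs1 did for CSP minus CMP (0.014), and with it and without TSP 1 and TSP 2 Spp1 (0.70) and Sparcl1 (0.955) did for TSP minus CSP. With slide as a fixed block the values were -0.17 for Cyr61 in CSP minus CMP, -0.26 for Thbs1 and -0.37 for Cyr61 in TSP minus TMP, and -0.048 for Postn in TSP minus CSP; without TSP 1 and TSP 2 as well they were -0.091, -0.37 and -0.44 for the first 3, and 0.32 for Spp1 and 1.16 for Sparcl1 in TSP minus CSP. With slide as a random block, Thbs1 (-0.11) and Cyr61 (-0.19) changed for TSP minus TMP. Within slide 1, Tnc (-0.17), Ctgf (0.17) and Cyr61 (0.13) changed for TSP minus CSP, within slide 3 Sparcl1 did (1.16), and within slide 4 Cyr61 did for CSP minus CMP (-0.12). Within slide 5, Thbs1 (-0.10) and Cyr61 (-0.23) changed for TSP minus TMP, and Sparc (-0.39), Thbs1 (-0.32), Postn (-0.014) and Cyr61 (-0.20) for TMP minus CMP. Without TSP 1 and TSP 2, Thbs1 (-0.23) and Cyr61 (-0.29) changed for TSP minus TMP, and Spp1 (1.20) and Sparcl1 (1.03) for TSP minus CSP.

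Over fits that left out 1 of 18 arrays, or TSP 1, TSP 2 and 1 more, 16 uncalled differences took both signs: 12 with 1 of 18 left out, 3 (Thbs1 and Tnc in TSP minus CSP, Tnc in TSP minus TMP) only with TSP 1 and TSP 2 left out as well, and 1 (Spp1 in TSP minus CSP) in neither set, being below 0 in the first (-1.44 to -0.064) and above 0 in the second (0.73 to 1.63). The ranges here span both sets. For TSP minus TMP they were -0.22 to 0.62 for Ctgf, -0.63 to 0.21 for Cyr61, -0.66 to 0.33 for Thbs1, -0.68 to 1.91 for Thbs2 and -0.20 to 0.36 for Tnc. For TSP minus CSP they were -0.00095 to 1.91 for Postn, -1.06 to 1.21 for Sparcl1, -1.44 to 1.63 for Spp1, -0.14 to 0.62 for Thbs1 and -0.072 to 0.52 for Tnc. For TMP minus CMP they were -0.032 to 0.32 for Cyr61, -0.10 to 0.22 for Sparc, -0.22 to 0.49 for Thbs1, -1.12 to 1.46 for Thbs2 and -0.36 to 0.0079 for Tnc, and for CSP minus CMP -0.60 to 1.67 for Thbs2. Left-out outlier spots limit Thbs2, with 2 values in each main population group.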
